A study of Homo sapiens with 4 samples.

Results

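Genes of cholesterol and fatty acid synthesis that are controlled by the sterol regulatory element binding proteins (SREBPs) were examined in ES2 cells treated with EC359. The set holds 32 genes of the 23228 gene symbols in the files and was chosen by name: 8 genes of the mevalonate and isoprenoid steps, 10 genes from squalene to sterols, 5 SREBP regulators and 9 genes of fatty acid synthesis, desaturation and elongation. ES2 is an established human ovarian cancer cell line, and EC359 is a small molecule inhibitor of the leukemia inhibitory factor receptor (LIFR). One group of cells received EC359 at 10 nM and the other received vehicle (0.1% DMSO), each for 12 h, and 2 libraries were sequenced per treatment. All libraries came from this same line, so the values describe 1 cell model. The labels do not say whether the libraries of a treatment came from separate cultures, while the study describes its 2 RNA samples per treatment as independent ones.

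The SREBPs are transcription factors that are made as membrane proteins of the endoplasmic reticulum. When sterols are plentiful, INSIG proteins hold the escort protein SCAP and its bound SREBP in that membrane. When sterols fall, SCAP carries the SREBP to the Golgi, where proteases release its active part, which enters the nucleus and binds sterol regulatory elements (SREs) in the promoters of its targets. The product of SREBF2 acts mainly on cholesterol synthesis genes and that of SREBF1 mainly on fatty acid genes. RNA counts do not show how much SREBP is cleaved.

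Before the values, the upstream sequences of 3 promoters are shown, for the members whose RNA passed the test in these libraries (FDPS and SCD) and for the member whose promoter matched the SRE letters TCACNCCAC (SREBF2). Each run holds the 250 bases before the annotated start, read 5′ to 3′ on the plus strand of GRCh38.p14 from RefSeq, a different build from that of the counts. Capitals mark matches on either strand to TCACNCCAC or its core CACNCCAC, to CCAAT (bound by NF-Y, a partner of SREBPs), and to the GC box GGGCGG (bound by Sp1). The core lies inside the longer SRE, and GC boxes can overlap each other. FDPS lies at chr1:155308616-155308865, SCD at chr10:100346983-100347232 and SREBF2 at chr22:41832855-41833104.

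FDPS: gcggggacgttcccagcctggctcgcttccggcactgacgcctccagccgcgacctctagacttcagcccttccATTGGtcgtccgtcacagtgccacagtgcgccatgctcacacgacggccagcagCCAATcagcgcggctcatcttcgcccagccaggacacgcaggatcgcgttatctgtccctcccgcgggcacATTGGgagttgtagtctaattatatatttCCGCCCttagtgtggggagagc

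SCD: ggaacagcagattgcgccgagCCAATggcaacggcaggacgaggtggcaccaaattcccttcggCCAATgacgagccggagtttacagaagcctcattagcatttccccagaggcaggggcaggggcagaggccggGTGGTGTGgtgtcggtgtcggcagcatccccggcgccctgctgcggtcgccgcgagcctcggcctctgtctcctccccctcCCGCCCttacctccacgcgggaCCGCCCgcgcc

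SREBF2: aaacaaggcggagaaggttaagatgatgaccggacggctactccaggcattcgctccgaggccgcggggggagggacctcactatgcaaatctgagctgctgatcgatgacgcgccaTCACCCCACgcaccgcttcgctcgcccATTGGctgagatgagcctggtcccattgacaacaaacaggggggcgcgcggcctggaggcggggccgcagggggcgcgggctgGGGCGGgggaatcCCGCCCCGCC

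The FDPS promoter held 3 CCAAT matches, at -176 to -172, -122 to -118 and -51 to -47 from the start, and no SRE core. The SCD promoter held CCAAT at -229 to -225 and -186 to -182 and an SRE core on the minus strand at -114 to -107. In SREBF2 the SRE lay at -133 to -125, followed by CCAAT on the minus strand at -106 to -102. RefSeq promoter windows of 300 bases, 250 before the start and the rest after it, were given for 28 of the 32 members, in 39 windows. CCAAT was present in 61.5% of the member windows, against 34.6% of all 35116 windows and 35.1% of the 13030 windows of tested genes. The GC box was present in 82.1%, against 45% of all windows and 65.5% of those of tested genes. The SRE core was present in 12.8% (5 windows, of ACACA, IDI1, INSIG1, SCD and SREBF2), against 5.87% of all windows and 5.59% of those of tested genes. The longer SRE was present in 2.56% (1 window), against 1.13% of all windows and 1.07% of those of tested genes. For the E-box CACGTG the share was 10.3% (4 windows), against 7.26% of all windows and 9.3% of those of tested genes. These matches describe letters and not binding, and a window without a match says nothing about binding farther away.

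**Figure D1:**
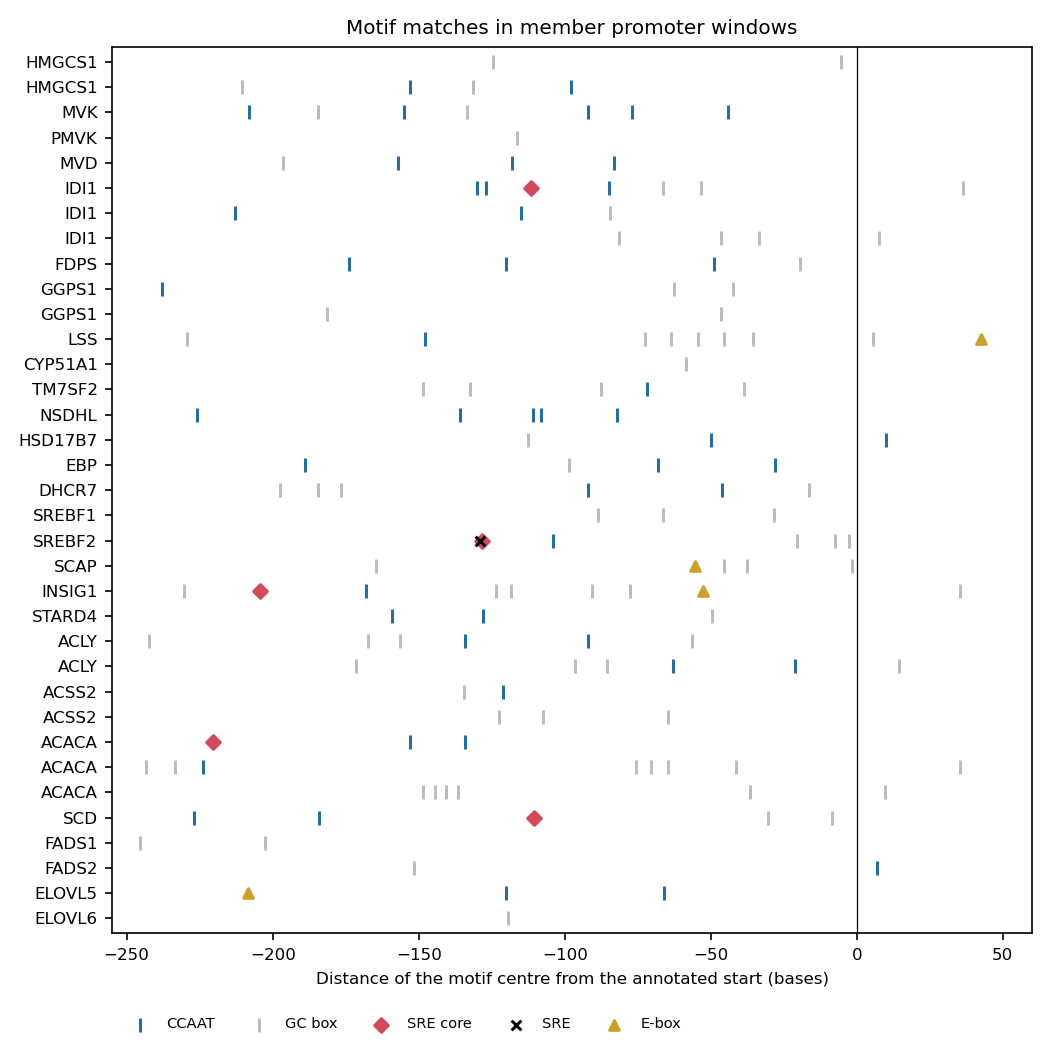
Motif matches in 35 promoter windows of the members, with the distance of each motif's centre from the annotated start in bases on the horizontal axis and 1 row per window (a gene with several starts has several rows). Blue bars are CCAAT, grey bars GC boxes, red diamonds the SRE core, the cross the longer SRE and triangles the E-box, and windows with no match are not drawn. The SRE cores of IDI1, SCD and SREBF2 lie between -133 and -107, and those of INSIG1 and ACACA farther upstream.

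Reads counted on genes totalled between 25572494 and 31707553 per library, and both EC359 libraries were larger than both vehicle libraries. Uniquely aligned reads that fell on no gene came to 10.9% to 12%. KRT18 and KRT8, keratins of epithelial cells, had 7006 to 7759 and 618 to 681 normalized counts. The epithelial markers EPCAM and CDH1 had 0 to 2 raw counts per library, MUC16 had 0, KRT19 had 5 to 23 and PAX8 had 24 to 41. Of the mesenchymal markers, VIM had 150994 and 157710 normalized counts with vehicle and 135415 and 139151 with EC359, FN1 had 63540 to 64711 over all libraries and CDH2 4111 to 4276. Of the leukocyte markers, PTPRC had 0 to 1 raw counts per library, CD14 had 0 to 2 and CD3E had 0. So KRT18 and KRT8 were present, KRT19 and PAX8 were low, and EPCAM, CDH1 and MUC16 were at or near 0 in all 4 libraries.

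Values below are normalized counts, which are read counts scaled with TMM factors to the mean library size. Log2 fold changes are EC359 minus vehicle, and p values come from the quasi-likelihood test of edgeR, adjusted by the Benjamini-Hochberg method over all 12706 tested genes. Genes whose adjusted p was below 0.01 were called, whatever the size of the change. One alternative fit, referred to as having the GC trend removed, took out of each library its smooth trend of counts against the GC content of transcripts. Each library pools many cells, so less RNA of a gene per cell and fewer cells that express it cannot be told apart. Counts scaled in this way are also relative to the library and do not show a change in total RNA per cell.

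On this scale the groups did not overlap for the mesenchymal marker VIM, which was lower with EC359 (log2 fold change -0.17, edgeR adjusted p = 0.0135), and it was not called. Its adjusted p was under 0.01 in 7 of the 12 alternatives that kept all 4 libraries, DESeq2 (0.000636) and limma voom (0.00575) among them. KRT18 had a log2 fold change of 0.09 (edgeR adjusted p = 0.204), CDH2 of 0.04 and FN1 of -0.0065. Whether the difference in VIM has a part in the values of the members was not tested.

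All 32 members passed the filter on low counts and were tested. With EC359, SCD and FDPS fell, and 30 members were not called. These 2 genes were called lower and 0 members were called higher, beside 0.795% of all tested genes called lower and 0.299% called higher (1.09% in all). At an adjusted p under 0.05 the members were again these 2, beside 2.64% lower and 1.68% higher over all genes, and the next lowest adjusted p of a member was 0.075. At an unadjusted p under 0.05 there were 8 lower members (background 11.0%) and 2 higher members (background 10.7%). Both EC359 libraries lay below both vehicle libraries for 13 members, where 25.4% of all tested genes did so, and above them for 5 members, where 26.1% did so. The groups overlapped for 14 members. The median log2 fold change of the members was -0.049, beside 0.0029 over all tested genes, and 20 members were lower and 12 higher. The median absolute log2 fold change was 0.074 for the members and 0.091 for all tested genes. For 31 of the 32 members the 95% interval of the log2 fold change lay within 0.5 of 0 on either side, TM7SF2 being the exception. Within 0.26 of 0, a bound near the size of the 2 called changes, it lay for 20 of the 32. So for some members that were not called, a change of the called size is not excluded.

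**Figure D2:**
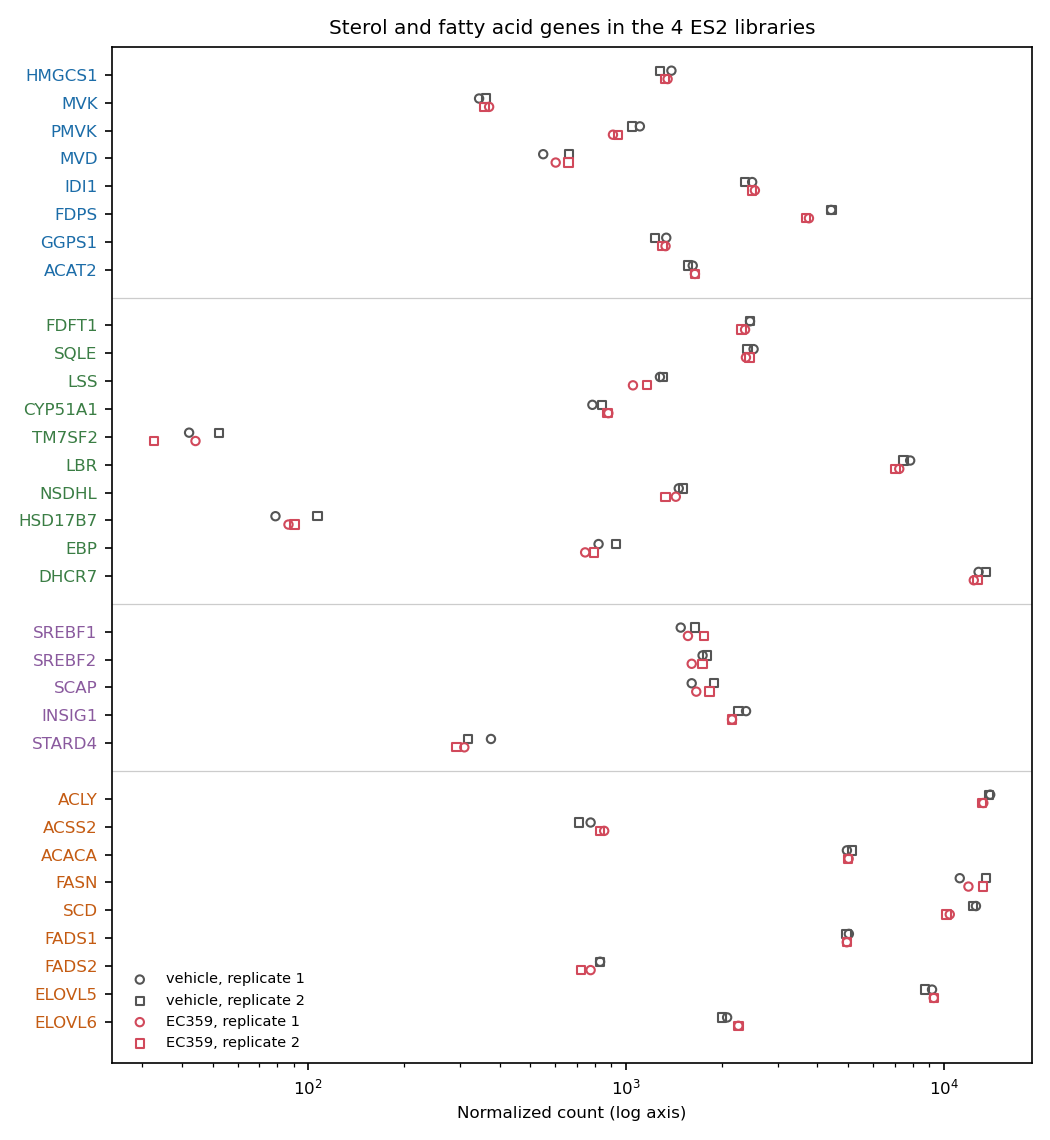
Normalized counts (log axis) of the 32 members in each of the 4 libraries, grey for vehicle and red for EC359, circles for replicate 1 and squares for replicate 2, with genes coloured by step (blue mevalonate, green sterol, purple regulators, orange fatty acid). For SCD and FDPS the red symbols lie to the left of the grey ones, and for most other genes the colours lie close together.

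FDPS makes farnesyl pyrophosphate, the branch point from which squalene, ubiquinone, dolichol and the lipid anchors of prenylated proteins are built. It had 4422 and 4438 normalized counts in the vehicle libraries and 3765 and 3694 in the EC359 libraries. Both EC359 libraries were low, and the gap between treatments was larger than the gap within either. FDPS fell by 15.8% (log2 fold change -0.25, standard error 0.037, 95% interval -0.33 to -0.17, n = 2 per treatment, edgeR adjusted p = 0.00625). By unadjusted p it ranked 85 among the tested genes. The gene is placed on chromosome 1 (GRCh37, the hg19 build) at 155278539 to 155290457. Of its exon bases, 18.6% overlap RUSC1-AS1 on the opposite strand, which had 1 to 5 raw counts per library, and 2.8% of the 50-base windows of its transcript also occur in genes elsewhere. With 1 library left out, the log2 fold change of FDPS ran from -0.26 to -0.23. It was not called in the fits without an EC359 library, which called few genes or none. With no filter on low counts the adjusted p was 0.0127. Over the alternatives that kept all 4 libraries the adjusted p of FDPS ran from 1.74e-13 to 0.0127.

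PMVK, the kinase that acts just before MVD, had 1106 and 1044 normalized counts with vehicle and 910 and 942 with EC359. Its groups did not overlap, but it was not called (log2 fold change -0.21, standard error 0.062, edgeR adjusted p = 0.0782). The other 6 genes of these steps had log2 fold changes between 0.0036 and 0.06. HMGCS1, which makes HMG-CoA from acetoacetyl-CoA, had 1390 and 1280 normalized counts with vehicle and 1352 and 1324 with EC359. ACAT2, which makes the acetoacetyl-CoA, had 1622 and 1570 with vehicle and 1648 and 1652 with EC359. MVK, the kinase before PMVK, had a log2 fold change of 0.05 (95% interval -0.15 to 0.24), and MVD, which decarboxylates mevalonate pyrophosphate, 0.06 (-0.15 to 0.27). The isomerase IDI1 was at 0.05 (-0.05 to 0.15). GGPS1, which extends farnesyl to geranylgeranyl pyrophosphate, was at 0.03 (-0.10 to 0.16). So the enzymes on either side of PMVK and FDPS had values near 0, and none of these 6 passed the test. The directions of HMGCS1 and MVD turned when the trend against GC content was removed, and those of HMGCS1, MVD and GGPS1 when 1 library was left out. Exons of GGPS1 (41% of bases), HMGCS1 (37.7%) and ACAT2 (22.2%) overlap other genes of the GENCODE annotation, on the other strand and, for GGPS1, also on the same strand. Whether the counting used strand is not stated in the sources used here. Where both genes of such a pair were counted, their reads may not be told apart.

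From squalene to sterols, 9 of the 10 genes had negative log2 fold changes and none was called, with a median of -0.085. LSS, which closes the ring of lanosterol, had 1279 and 1309 normalized counts with vehicle and 1052 and 1163 with EC359. Both EC359 libraries were low, and LSS missed the threshold (log2 fold change -0.23, standard error 0.064, edgeR adjusted p = 0.075). With the GC trend removed its adjusted p was 0.00647, and over all alternatives for LSS it ran from 0.000239 to 0.487. EBP, the sterol isomerase, had 820 and 932 normalized counts with vehicle and 744 and 794 with EC359 (log2 fold change -0.19, edgeR adjusted p = 0.189). Its groups were apart, and its vehicle libraries differed by more than the nearest libraries of the 2 treatments. Of its exon bases, 36.4% overlap another gene of the GENCODE annotation, while the counts used RefSeq genes. LBR, a sterol reductase that also anchors chromatin at the nuclear envelope, had 7839 and 7465 with vehicle and 7244 and 7043 with EC359 (log2 fold change -0.10, edgeR adjusted p = 0.153). The vehicle libraries of LBR also differed by more than its nearest libraries of the 2 treatments. With the GC trend removed LBR had a log2 fold change of -0.13 and an adjusted p of 0.00204, and over all alternatives the latter ran from 2.28e-07 to 0.604.

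TM7SF2, the other sterol reductase of that step, was the lowest member, with 42.2 and 52.3 normalized counts with vehicle and 44.2 and 32.7 with EC359. Its groups overlapped, and its log2 fold change of -0.29 had the widest interval, from -0.85 to 0.26. HSD17B7, a sterol ketoreductase, had 78.9 and 107 with vehicle and 86.7 and 90.6 with EC359, and 47.9% of the 50-base windows of its transcript also occur elsewhere, mainly in its pseudogene HSD17B7P2, so its level is uncertain. FDFT1, the squalene synthase, was at -0.07 on the log2 scale (95% interval -0.17 to 0.03). SQLE, the squalene epoxidase and a rate-limiting step, was at -0.03 (-0.13 to 0.07). NSDHL, which takes part in removing the methyl groups at sterol carbon 4, was at -0.10 (-0.23 to 0.02). DHCR7, which completes cholesterol from its last precursor, had 12869 and 13596 normalized counts with vehicle and 12430 and 12777 with EC359 (log2 fold change -0.07, 95% interval -0.15 to 0.0087). CYP51A1, the lanosterol demethylase, stood on the other side, with 784 and 840 with vehicle and 880 and 875 with EC359 (log2 fold change 0.11, -0.03 to 0.26). Of its exon bases, 74.1% overlap other genes of the GENCODE annotation, while the counts used RefSeq genes. Whether this overlap affected its level was not tested.

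None of the 5 regulators was called. SREBF2 had 1742 and 1798 normalized counts with vehicle and 1610 and 1743 with EC359 (log2 fold change -0.08, 95% interval -0.20 to 0.04). SREBF1 had 1487 and 1649 with vehicle and 1567 and 1756 with EC359 (log2 fold change 0.08, -0.07 to 0.24). The groups of both genes overlapped. SCAP, the escort protein, had 1610 and 1891 with vehicle and 1664 and 1830 with EC359 (log2 fold change -0.0034, -0.17 to 0.17, and 0.02 with total counts in place of TMM factors). Its EC359 libraries lay between its vehicle libraries. INSIG1, which retains SCAP and is itself an SREBP target, had 2387 and 2259 with vehicle and 2156 and 2159 with EC359. Its EC359 libraries were the lower ones, but its vehicle libraries were farther apart than the nearest libraries of the 2 treatments. INSIG1 did not pass over all genes (log2 fold change -0.11, standard error 0.047, edgeR adjusted p = 0.223). STARD4, a cholesterol carrier of the cytosol and an SREBP target, had 376 and 319 with vehicle and 310 and 293 with EC359 (log2 fold change -0.20, -0.43 to 0.03, edgeR adjusted p = 0.287). Its groups did not overlap, but its vehicle libraries were farther apart than the nearest libraries of the 2 treatments.

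SCD, the desaturase that turns saturated acyl-CoA into monounsaturated acyl-CoA such as oleoyl-CoA, had 12626 and 12336 normalized counts with vehicle and 10444 and 10188 with EC359. Both EC359 libraries were low, and the treatments were farther apart than the libraries within either. SCD fell by 17.3% (log2 fold change -0.27, standard error 0.032, 95% interval -0.35 to -0.20, n = 2 per treatment, edgeR adjusted p = 0.00234). By unadjusted p it ranked 29 among the tested genes. The gene is placed on chromosome 10 (GRCh37) at 102106990 to 102124583, and 4.52% of the 50-base windows of its transcript also occur in other genes. With 1 library left out, the log2 fold change of SCD ran from -0.3 to -0.26. It was not called in the fits without an EC359 library, which called few genes or none. Over the alternatives that kept all 4 libraries the adjusted p of SCD ran from 1.42e-41 to 0.00523.

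The other 8 fatty acid genes were not called and lay on both sides of 0. ELOVL6, which elongates the saturated acyl chains on which SCD also acts, had 2081 and 2008 normalized counts with vehicle and 2258 and 2259 with EC359 (log2 fold change 0.14, standard error 0.046, edgeR adjusted p = 0.102). ACSS2, which makes acetyl-CoA from acetate, had 774 and 711 with vehicle and 854 and 829 with EC359 (log2 fold change 0.18, standard error 0.069, edgeR adjusted p = 0.163). Both EC359 libraries were high for these 2 genes, but the vehicle libraries of ACSS2 were farther apart than its nearest libraries of the 2 treatments. ACLY, which makes acetyl-CoA from citrate, had 13998 and 13863 with vehicle and 13318 and 13221 with EC359 (log2 fold change -0.07, standard error 0.030, edgeR adjusted p = 0.209). FADS2, a desaturase of polyunsaturated fatty acids, had 829 and 828 with vehicle and 774 and 723 with EC359 (log2 fold change -0.15, 95% interval -0.29 to 0.0021).

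ACACA, which makes malonyl-CoA and sets the pace of fatty acid synthesis, had a log2 fold change of -0.01 (95% interval -0.09 to 0.07). FADS1, the other desaturase of polyunsaturated fatty acids, was at -0.0082 (-0.09 to 0.07), and ELOVL5, which elongates such chains, at 0.06 (-0.02 to 0.13). The directions of ACACA and FADS1 turned with total counts in place of TMM factors and with the GC trend removed. FASN, the fatty acid synthase, had 11228 and 13598 normalized counts with vehicle and 11957 and 13303 with EC359 (log2 fold change 0.02, -0.14 to 0.19). Its libraries differed more by replicate number than by treatment, and its direction turned with the GC trend removed (log2 fold change -0.04).

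**Figure D3:**
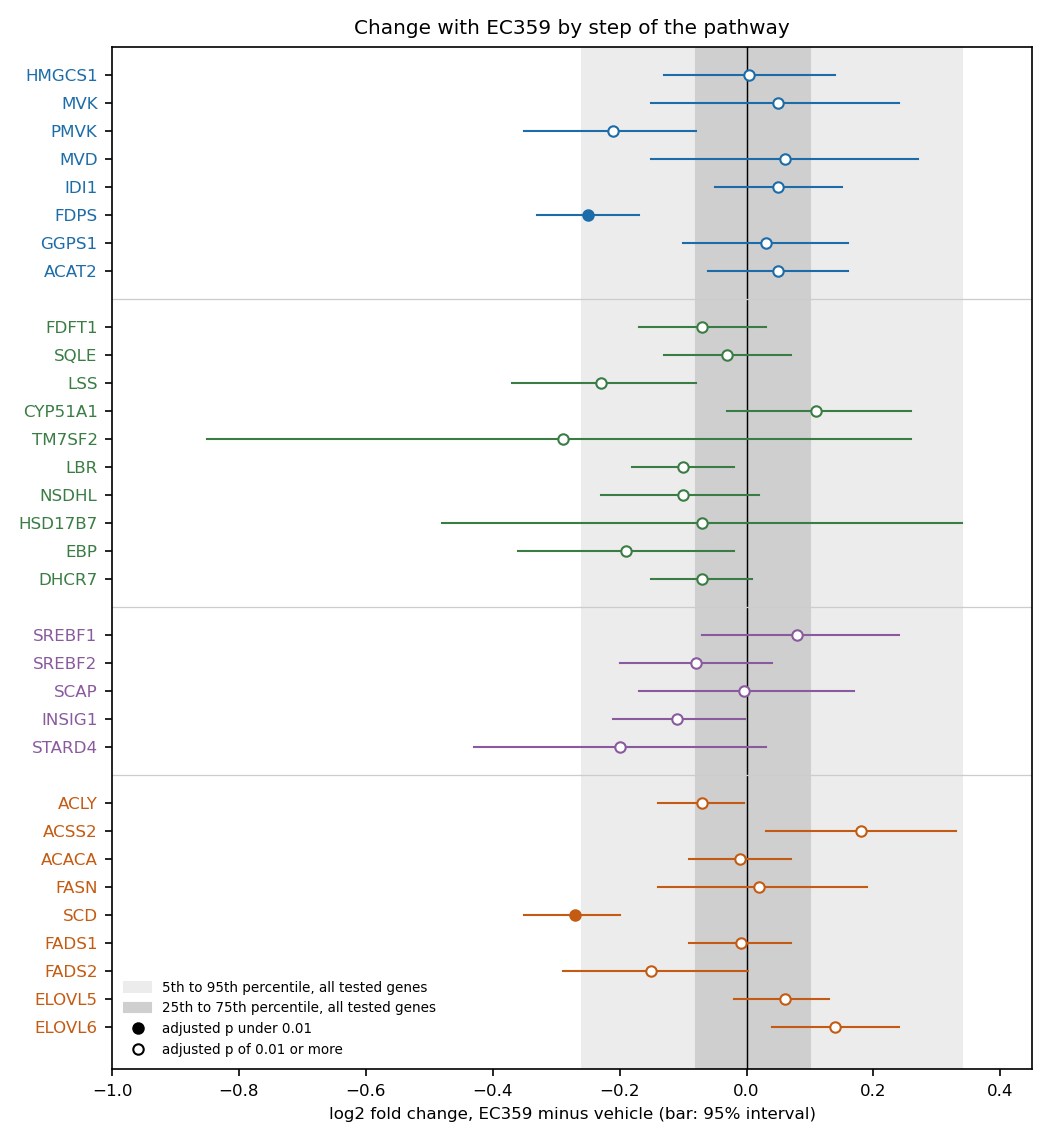
Log2 fold change (EC359 minus vehicle) of each member as a point with its 95% interval, ordered by step and coloured as in the plot of counts, over bands for the middle range of all tested genes (5th to 95th percentile, -0.26 to 0.34, and 25th to 75th, -0.08 to 0.10). The filled points, FDPS at -0.25 and SCD at -0.27, are the members called at an adjusted p under 0.01.

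The replicates also differed in a way that went partly with base composition, more with vehicle than with EC359. The members FASN (65.3% GC), MVD (65.5%), SREBF1 (63.2%) and SCAP (61.7%), whose transcripts are GC-rich, were higher in replicate 2 than in replicate 1 by 0.28, 0.27, 0.15 and 0.23 on the log2 scale with vehicle and by 0.15, 0.13, 0.16 and 0.14 with EC359. TM7SF2 (62.4%), which has few counts, was at 0.31 with vehicle and -0.44 with EC359. In STARD4, at 34.4% GC, replicate 2 stood at -0.23 against replicate 1 with vehicle and at -0.08 with EC359. Across the 32 members, the log2 ratio of replicate 2 to replicate 1 and the GC content had a Pearson correlation of 0.61 with vehicle and 0.23 with EC359 (Spearman 0.66 and 0.37). The members share libraries and depth, so these are descriptions over genes. The log2 fold change with EC359 and the GC content had a Pearson correlation of -0.13. FDPS and SCD, at 55.1% and 46.5% GC, differed between vehicle replicates by 0.0049 and -0.03.

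Levels between genes were compared as normalized counts per kilobase of the longest protein-coding transcript. With vehicle, DHCR7 was the highest member at 4643 ± 180 per kilobase (SD, n = 2), followed by ACLY (3226 ± 22.1), FDPS (2997 ± 7.23), ELOVL5 (2906 ± 106) and SCD (2380 ± 39.1). FDPS and ELOVL5 did not differ by more than their summed SD, and the other neighbours among these 5 did. TM7SF2 was lowest at 30.0 ± 4.51, below HSD17B7 (60.8 ± 12.9) and STARD4 (75 ± 8.60). SREBF2 and SREBF1 stood side by side at 321 ± 7.26 and 320 ± 23.4. Of the 31 pairs of neighbours in this order, 15 differed by more than their summed SD. With EC359, FDPS was at 2523 ± 34.1 and SCD at 1967 ± 34.4, so both stayed among the 5 highest members, and ELOVL5 (3020 ± 3.22) stood above FDPS.

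**Figure D4:**
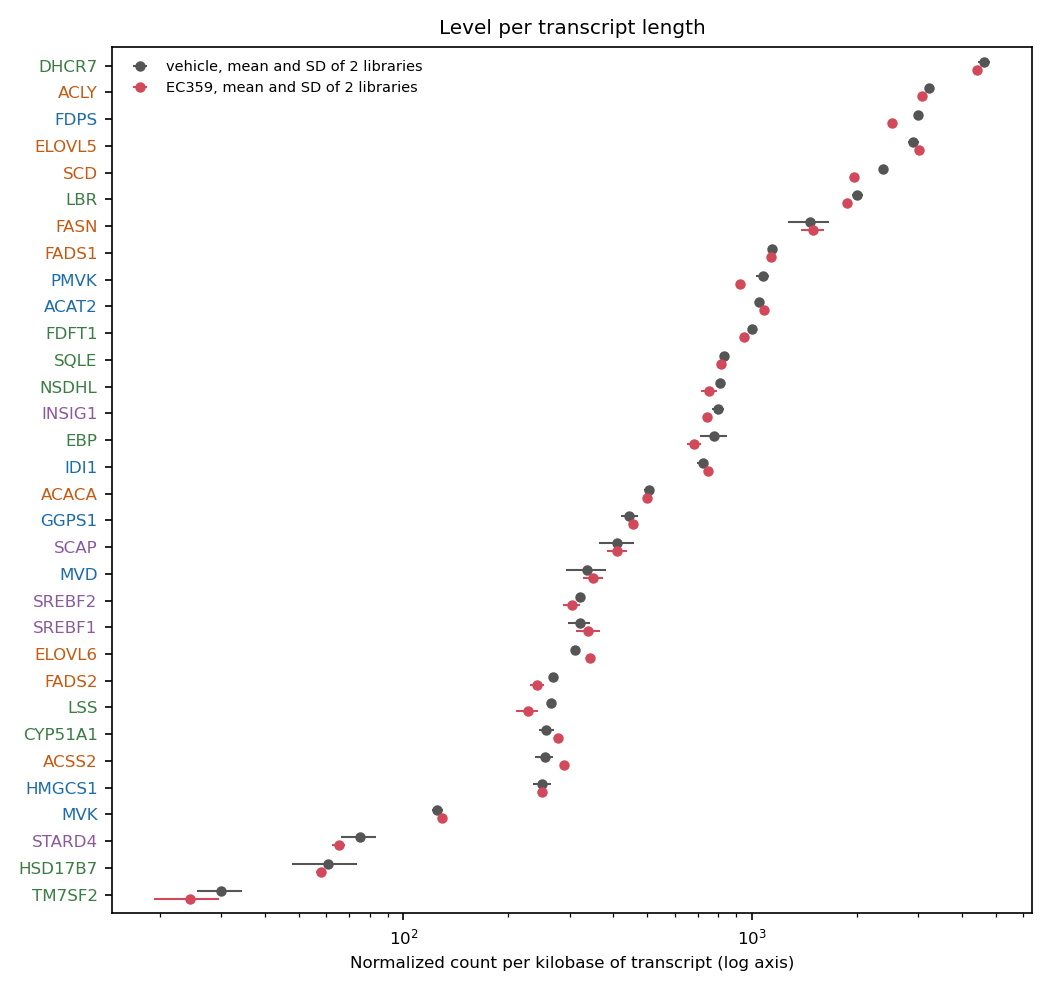
Normalized counts per kilobase of transcript (log axis) of the 32 members with vehicle (grey) and EC359 (red), as the mean and SD of 2 libraries, in order of the vehicle level and with gene names coloured by step as in the plot of counts. The levels run from 4643 for DHCR7 to 30.0 for TM7SF2, and the red points of FDPS and SCD lie to the left of the grey ones.

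Further genes of the same pathways were taken from lists written from general knowledge. Of 11 other genes of sterol synthesis and SREBP processing, none was called and the median log2 fold change was -0.001. SC5D, the desaturase of sterol ring B, had 1006 and 1017 normalized counts with vehicle and 1140 and 1206 with EC359 (log2 fold change 0.21, edgeR adjusted p = 0.073). MBTPS1, the Golgi protease that makes the first cut in the SREBPs, had 6087 and 6229 with vehicle and 5761 and 5702 with EC359 (log2 fold change -0.10, edgeR adjusted p = 0.112). Both genes had groups that did not overlap, in opposite directions.

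Of 18 other genes of fatty acid and lipid synthesis, 17 were tested, with a median log2 fold change of 0.053, and 1 was called. GPAM, a mitochondrial enzyme that adds the first acyl chain to glycerol phosphate, had 4173 and 4047 normalized counts with vehicle and 4880 and 4825 with EC359. Both EC359 libraries were high, and GPAM rose by 18.1% (log2 fold change 0.24, standard error 0.037, edgeR adjusted p = 0.00705). With 1 library left out, the log2 fold change of GPAM ran from 0.21 to 0.26. It was not called in the fits without an EC359 library, which called few genes or none. With no filter its adjusted p was 0.0161, within a range from 3.95e-14 to 0.0161 over the alternatives that kept all 4 libraries. ELOVL1, which elongates long saturated chains, had 5309 and 5413 with vehicle and 4778 and 4753 with EC359 (log2 fold change -0.17, edgeR adjusted p = 0.0244) and was not called at 0.01. It passed 0.01 in 5 of the 12 alternatives that kept all 4 libraries, among them edgeR's exact test (0.00158) and the fit with the GC trend removed (0.00156), and over all alternatives its adjusted p ran from 2.53e-07 to 0.379.

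**Figure D5:**
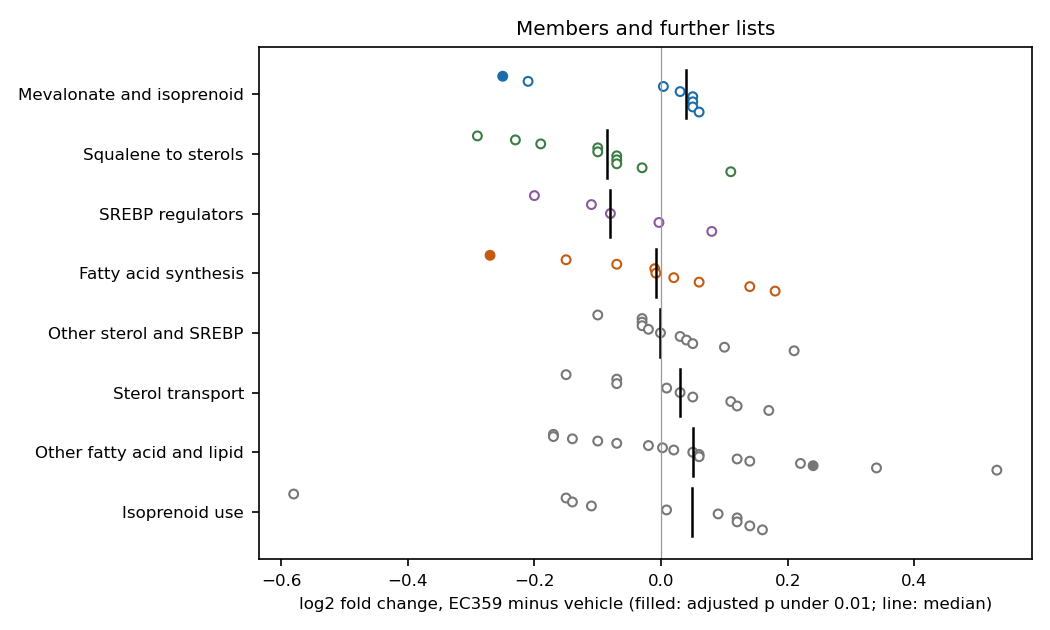
Log2 fold changes (EC359 minus vehicle) of the members by step and of the tested genes of 4 further lists, 1 point per gene, filled where the adjusted p was under 0.01, with a black line at each list's median. The list medians run from -0.085 (squalene to sterols) to 0.053 (other fatty acid and lipid genes), and the 3 filled points are FDPS, SCD and GPAM.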

How the data were processed

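The authors prepared stranded mRNA libraries, read them as 50 bp single ends, aligned them to UCSC hg19 with TopHat2 (2.0.8b, with CASAVA 1.8.2, per the submitters' processing notes) and counted NCBI RefSeq genes with HTSeq. For each gene symbol the authors deposited raw counts, and the strand setting of the counting is not given in the sources used here. Summary rows that name no gene were left out of library sizes (0.852% to 0.879% of unique reads were ambiguous and 10.9% to 12% on no gene, beside 15051182 to 18703790 alignments that were not unique). The study's own test was DESeq.

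Genes were filtered with filterByExpr (minimum count 10, minimum total 15), given TMM factors, and tested in edgeR 4.0.16 (quasi-likelihood, R 4.3.3) without a replicate block. Standard errors are the log2 fold change over the square root of F. Alternatives used DESeq2 1.42.0, limma 3.58.1 and the choices given in the closing section. The model was tested on simulated counts with 200 changed genes per size. At an adjusted p under 0.01 it recovered 57% of changes of 0.3 on the log2 scale and 87% of those of 0.5. Smaller changes were not simulated. Every gene was drawn with the same spread, and changed genes were taken only above a minimum mean count. The libraries were drawn without the trend against GC content and without deviations shared by replicate number. So these shares need not hold for single members or for the real libraries. Transcript lengths, GC content and places came from GENCODE lifted to GRCh37, which matched 91.8% of the symbols, and promoters came from RefSeq. MSMO1 and SC5D were matched by older symbols. The members, lists and thresholds were chosen with earlier results of these data known. Values in every library are given for members with an adjusted p under 0.05 or an absolute log2 fold change of at least 0.2, for regulators and for the highest and lowest members, and further values were added after they were seen. From further lists, called genes are named, or else the 2 genes with the lowest p. ELOVL1 was named after its values were seen. Not every gene of these pathways is reported here. The 2 libraries per treatment differed by more than sampling noise (chi-square per degree of freedom 3.81 for vehicle and 2.7 for EC359). The p-values measure only the spread between these libraries, and edgeR estimates it for each gene partly from the other genes. That borrowed part had the weight of 8.28 degrees of freedom. Standard errors and intervals rest on the same estimate.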

Additional observations from a re-analysis of the deposited data

How the results depend on the processing

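Over the alternatives, SCD and FDPS kept a negative log2 fold change in every fit. With RLE factors, upper-quartile factors, total counts, at least 10 counts in every library, DESeq2, edgeR's exact test, limma voom or an adjusted p under 0.05, 2 members passed. With no filter 1 member was called and 61 genes in all, of 16620 tested. Over all genes, DESeq2 called 230, the exact test 568 and an adjusted p under 0.05 left 549. With the GC trend removed 4 members were called (1009 genes), and with GC and length trends removed 4 (961 genes), LSS and LBR being added. Leaving out 1 library gave 0 to 2 members called, 0 to 539 genes called (390 without vehicle replicate 1, 539 without vehicle replicate 2, 0 without EC359 replicate 1 and 2 without EC359 replicate 2) and a members' median from -0.067 to -0.02. In these fits the lone library was assumed to vary like the pair of the other treatment. The cause of these changes was not tested. With total counts only the members' median was -0.026 and that of all genes 0.027. With this scaling 52 genes were called higher and 68 lower, against 38 and 101 with TMM factors.

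The treatments share replicate numbers, but the labels tie the numbers to no batch, day or culture. Over the tested genes above the median level, deviations of same-numbered libraries correlated at 0.516. Over the 32 members, the log2 replicate ratios with vehicle and with EC359 had a Pearson correlation of 0.16 (Spearman 0.38). A replicate block called 6 members and 1539 genes, adding PMVK, LSS, LBR and ELOVL6, and a replicate block with the GC trend removed called 8 members and 2031 genes, adding DHCR7 and ACSS2 to these. Among the named genes of the further lists, the block brought the adjusted p of SC5D to 0.00426, MBTPS1 to 0.00536, SCARB1 to 0.00218, ELOVL1 to 3.33e-05 and ICMT to 9.04e-05. With the block FNTB (0.107) and NR1H2 (0.151) did not pass 0.01, and GPAM, already called, was at 2.25e-07. These stand beside 1539 of all 12706 tested genes called with the block.

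Of 508 refits of single members, 459 kept direction and side of the threshold and 30 turned in direction, all in members that were not called. With total counts only the log2 fold changes of SCAP, ACACA and FADS1 were 0.02, 0.01 and 0.02. With the GC trend removed HMGCS1, MVD, ACACA, FASN and FADS1 were at -0.02, -0.0049, 0.0028, -0.04 and 0.0089, and with a replicate block as well at -0.02, -0.0044, 0.0031, -0.04 and 0.0089. With GC and length trends removed HMGCS1, FASN and FADS1 were at -0.03, -0.05 and 0.0019. With 1 library left out, the ranges were -0.06 to 0.07 for HMGCS1, -0.07 to 0.19 for MVD, -0.03 to 0.09 for GGPS1, -0.07 to 0.0013 for SQLE, -0.27 to 0.16 for HSD17B7, -0.00039 to 0.16 for SREBF1, -0.11 to 0.11 for SCAP, -0.04 to 0.0088 for ACACA, -0.11 to 0.16 for FASN and -0.03 to 0.0058 for FADS1. Alternatives for genes of the further lists and for VIM and KRT18 were added after seeing the data.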

Other observations

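Genes that use the products of the mevalonate steps, and genes of sterol transport, are drawn as lists in the plot of list medians and are described here. Of the 10 genes of isoprenoid use, all were tested, none was called, and the median log2 fold change was 0.048. ICMT, which methylates prenylated proteins, had 5028 and 5083 normalized counts with vehicle and 5663 and 5596 with EC359 (log2 fold change 0.16, edgeR adjusted p = 0.0324). FNTB, the beta subunit of protein farnesyltransferase, had 48.9 and 50.1 with vehicle and 34.5 and 31.7 with EC359 (log2 fold change -0.58, standard error 0.23, edgeR adjusted p = 0.174), from 34 to 45 raw counts per library. In both genes the treatments did not overlap, and neither passed 0.01 in the test used throughout. ICMT passed it in 5 of the 12 alternatives that kept all 4 libraries, among them edgeR's exact test (0.00441) and the fit with the GC trend removed (0.000257), and over all alternatives its adjusted p ran from 2.65e-10 to 0.403.

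Of the 10 genes of sterol transport and export, 9 were tested and none was called, with a median log2 fold change of 0.03. SCARB1, the receptor for high density lipoprotein, had 3100 and 3192 normalized counts with vehicle and 2848 and 2828 with EC359 (log2 fold change -0.15, edgeR adjusted p = 0.068). NR1H2, a sterol-sensing nuclear receptor, had 926 and 1053 with vehicle and 1028 and 1113 with EC359 (log2 fold change 0.11, edgeR adjusted p = 0.416), and its groups overlapped. ABCG1, a sterol exporter, had 0 counts in all 4 libraries.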
